A study of Homo sapiens with 15 samples.

Results

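The genes described here are the folding machinery of the endoplasmic reticulum (ER) and the unfolded protein response. They were taken from a list of 35 symbols, and a gene counted as measured where an Affymetrix U133 Plus 2.0 probe set (the group of short probes that reads 1 transcript) carried that symbol and no other. This held for 33 of the 35 genes, of 19775 genes measured in all. SYVN1 and TXNDC5 had no such probe set and were not analysed here. Each gene was read through its brightest probe set, and all 33 passed the filter on dim genes, as did 14368 genes in all. The cells were SKOV3ip1, an established line of human epithelial ovarian cancer cells that carry abundant folate receptor alpha. Of 5 cultures, 1 grew for 7 days in medium free of folate and 4 in medium with folic acid, which the labels give as 2 to 10 nM (written nm). Of these 4, 1 received the antibody labelled MORAb003, 1 the antibody labelled 003 and 1 the control antibody 004, each for 24 hours, and 1 received none. MORAb-003 binds folate receptor alpha. Whether MORAb003 and 003 name 1 antibody or 2 is not stated in the labels. The titles name the folate source otherwise, as 5-MTF or, for the MORAb003 samples, MTF, and spell that antibody MORAb0003. What MTF stands for is not given there. Each condition was 1 culture and 1 RNA extract, hybridised as 3 aliquots. All adjusted p-values below, from limma with Benjamini-Hochberg adjustment over all 14368 genes, therefore compare extracts, and the spread between cultures is not in them. A gene is said to have risen or fallen where the adjusted p was under 0.05 and the difference at least 1.5-fold.

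Proteins that enter the secretory pathway pass through the Sec61 channel into the ER, where they are folded by the Hsp70 chaperone BiP (the product of HSPA5) and its co-chaperones, by the lectin chaperones calnexin and calreticulin and by disulfide isomerases. When unfolded proteins accumulate, the sensors IRE1 (ERN1), ATF6 and PERK (EIF2AK3) are activated. IRE1 splices the XBP1 messenger RNA, ATF6 is cut in the Golgi to release a transcription factor, and PERK slows translation and favours ATF4. Together they raise the genes of folding, degradation and export. Secretory epithelia and many carcinomas run this programme at a raised level.

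Promoters of the classic targets carry the ER stress response element, written ERSE here and searched on both strands as CCAAT, any 9 bases and CCACG, or its shorter form ERSE-II, searched as ATTGG, any base and CCACG. In RefSeq windows (GRCh38.p14, 250 bases before to 50 after each gene's start) 32 of the 35 genes had an entry, and PDIA3, SEC24D and DERL1 had none. ERSE was found in 8 of the 32 (25%), against 25 of all 27305 genes with a window (0.0916%). ERSE-II was found in 3 of the 32 (9.38%), against 19 of all genes (0.0696%). These 11 genes were CALR, CANX, CRELD2, HSP90B1, HSPA5, PDIA6, SERP1 and XBP1 for ERSE and HERPUD1, HYOU1 and SDF2L1 for ERSE-II. The core of a further element, TGACGTGG (named UPRE), was found in HYOU1, where it overlaps ERSE-II, and in TXNDC5, which is 6.25% of the 32, against 0.927% of all genes. The sites are printed because they mark which genes hold an exact match to the classic element in this window. Their values can then be read beside those of the others. A site that departs from these letters or lies outside the window would not be found. Capitals mark the element, in the direction of the gene, with 15 bases on either side.
HSPA5, chr9:125241376-125241424, minus strand, starting 66 bases upstream: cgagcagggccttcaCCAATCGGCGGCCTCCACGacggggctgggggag
XBP1, chr22:28800588-28800636, minus strand, 52 bases upstream: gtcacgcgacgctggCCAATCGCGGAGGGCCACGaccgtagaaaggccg
HSP90B1, chr12:103930201-103930249, plus strand, 194 bases upstream: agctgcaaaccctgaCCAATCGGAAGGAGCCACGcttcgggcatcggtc
HSP90B1, chr12:103930306-103930354, plus strand, 89 bases upstream, element reversed: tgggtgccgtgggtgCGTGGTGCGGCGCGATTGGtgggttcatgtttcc
PDIA6, chr2:10812838-10812886, minus strand, 86 bases upstream: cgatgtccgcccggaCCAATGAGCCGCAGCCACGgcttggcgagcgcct
CANX, chr5:179698763-179698811, plus strand, 151 bases upstream: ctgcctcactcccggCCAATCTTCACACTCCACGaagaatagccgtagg
CALR, chr19:12938369-12938417, plus strand, 225 bases upstream, element reversed: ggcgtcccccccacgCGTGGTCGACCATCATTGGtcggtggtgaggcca
CRELD2, chr22:49918539-49918587, plus strand, 80 bases upstream, element reversed: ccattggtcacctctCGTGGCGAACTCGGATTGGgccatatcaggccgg
SERP1, chr3:150546695-150546743, minus strand, 232 bases upstream, element reversed: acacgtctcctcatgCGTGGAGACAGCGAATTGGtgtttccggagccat
HERPUD1 (ERSE-II), chr16:56932010-56932050, plus strand, 117 bases upstream: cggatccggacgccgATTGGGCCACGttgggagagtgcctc
HYOU1 (ERSE-II), chr11:119057365-119057405, minus strand, 185 bases upstream, element reversed: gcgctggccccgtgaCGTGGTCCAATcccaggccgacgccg
SDF2L1 (ERSE-II), chr22:21642099-21642139, plus strand, 188 bases upstream, element reversed: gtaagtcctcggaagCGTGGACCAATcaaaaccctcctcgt
HYOU1 held a second copy of ERSE-II, 79 bases upstream. A match of letters is given as a description only.

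Facts of the arrays bear on every result. The actin control read higher at the 3′ than at the 5′ end, by a gap of log2 4.09 ± 0.16 without folate (SD over 3 arrays, here and for each extract), 2.42 ± 0.13 in the MORAb003 extract, 4.02 ± 0.10 in the 003 extract, 3.46 ± 0.31 in the 004 extract and 3.24 ± 0.13 in the folate extract. The GAPDH gap was also smallest with MORAb003, at 1.21 ± 0.14, against 2.37 ± 0.12 without folate, 2.49 ± 0.03 with 003, 2.05 ± 0.27 with 004 and 1.97 ± 0.05 with folate alone. Such a gap widens as RNA is degraded or shortened. Replicate 1 of the 004 extract stood apart from its own 2 partners (correlation across probe sets of at most 0.95, and a median over the 33 genes of 10.83 against 11.41 and 11.36), so results are also given without it. Its actin gap was 3.82, against 3.28 and 3.27 in its partners, and the gap differences given below include it. This array enters every comparison through the shared error. The cell type is given as labelled. All 12 epithelial and ovarian markers had means above the filter threshold (log2 13.61 for EPCAM, 14.15 for KRT18, 12.83 for PAX8 and 13.74 for FOLR1). The dimmest of them were MUC16, MUC1, KRT7 and ERBB2, at 6.71, 8.32, 8.68 and 9.04. Of the other cell types' markers, PTPRC, CD14, LYZ, CD163, COL3A1, PDGFRB and LUM lay below the threshold of log2 6.60, and COL1A1, DCN, PECAM1, CDH5, VWF and CD3E lay above it, which is 6 of 13, at means of 6.96 to 9.10. Passing the threshold therefore does not by itself tell the cell types apart. Of these 13, 6 of 8 fibroblast and endothelial markers and 1 of 5 leukocyte markers passed the filter and were tested. Among those tested, CDH5 was called higher with MORAb003 than with 004 and COL1A1 lower with MORAb003 than with 003. No other of them was called in any of the 8 comparisons, and the untested ones could not be called.

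**Figure D1:**
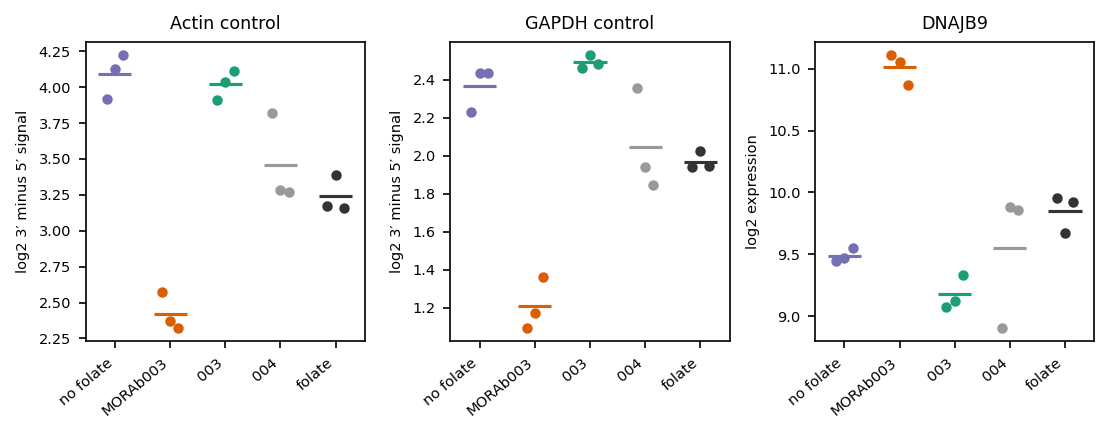
Each point is 1 array, each line the mean of the 3 arrays of an extract. The 3′ minus 5′ gap (log2) of actin and GAPDH was smallest in the MORAb003 extract (2.42 and 1.21), and DNAJB9 (log2 expression) was highest there.

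In the MORAb003 extract 3 of 33 genes, DNAJB9, HSPA13 and LMAN1, were higher than in the folate extract, where 4.77% of all genes were. Against the 003 extract 15 of 33, led by DNAJB9, SEC24D, HSPA13, SEL1L and LMAN1, were higher, where 17.6% of all genes were. The no-folate and 003 extracts read lower than the folate extract for most of the genes, with PDIA3 called in both. PDIA3, an isomerase for glycoproteins, was lower than in the folate extract in the no-folate, MORAb003 and 003 extracts in its brightest probe set, while its other sets read higher with MORAb003 than with folate alone. The brightest sets of ATF6, P4HB and ERP29 differed from the folate extract by -0.11 to 0.037 in these 3 extracts. Other sets of ATF6 and P4HB were called higher with MORAb003 than with folate, at 1.12 and 0.80 for ATF6 and 0.85 and 1.37 for P4HB.

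**Figure D2:**
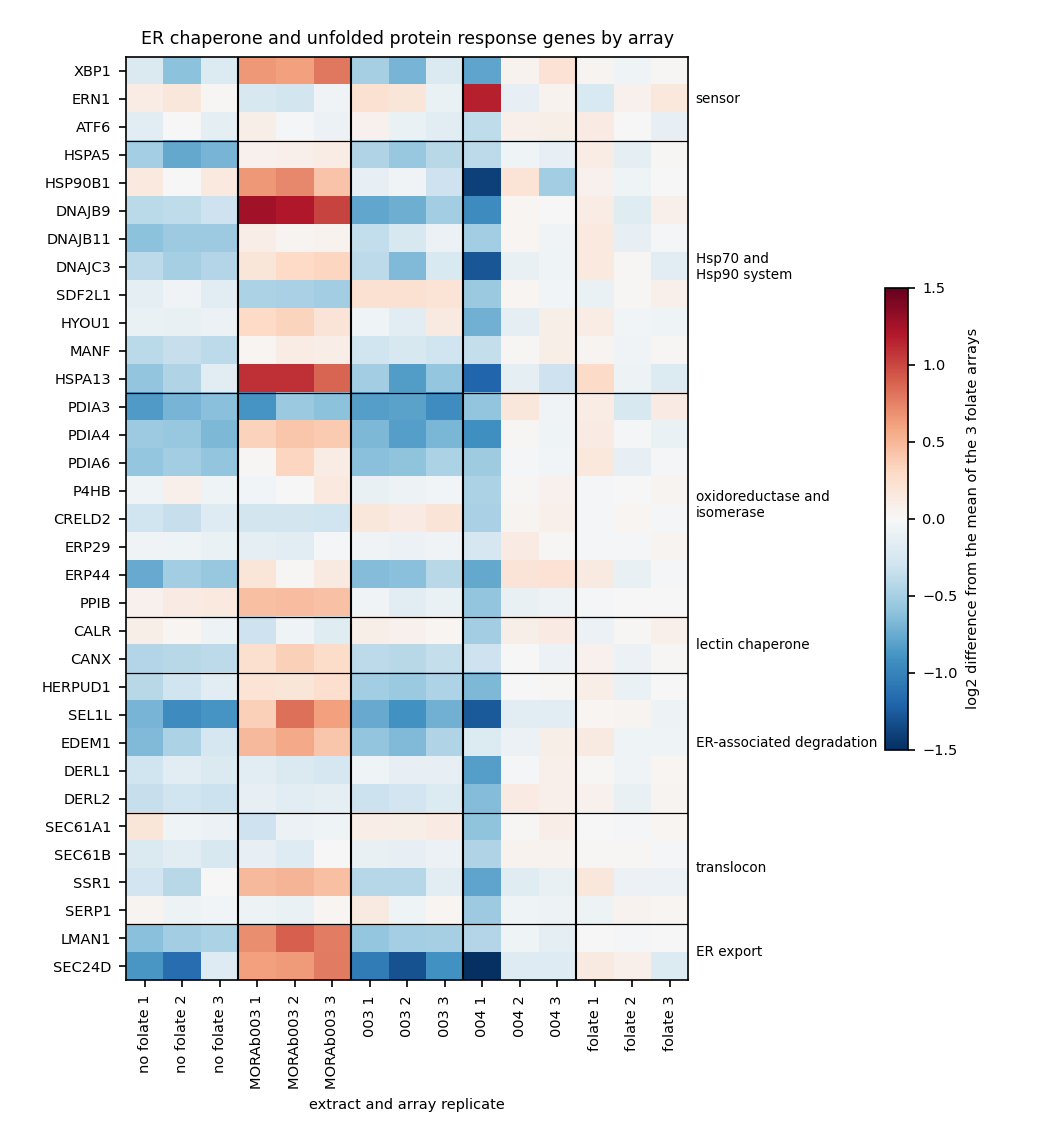
Rows are the 33 genes grouped by role (XBP1 is placed with the sensors), and columns the 15 arrays grouped by extract. Colour is the log2 difference from the mean of the 3 folate arrays, with the scale ending at 1.5 either way. Replicate 1 of the 004 extract differs from its partners, DNAJB9 and HSPA13 are highest with MORAb003, and PDIA3 is lower in the no-folate, MORAb003 and 003 arrays.

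Without folate, HSPA5 (BiP) and PDIA3 fell relative to the folate extract, as 2 of 33 genes, against 1.8% of all genes called lower. Of the 33, 0 rose by limma, against 0.905% of all genes called higher. In either direction, 12 of the 33 differed at an unadjusted p under 0.05, as did 2684 of all 14368 genes. Of the 33, 28 read lower and 5 higher, with a median difference of -0.32 (log2) where the median of all genes was 0.011. HSPA5 fell by 0.66 (SE 0.11, adjusted p = 0.00639) and PDIA3 fell by 0.72 (SE 0.17, adjusted p = 0.0325). The other HSPA5 set above the threshold ran the opposite way, at 0.16, and was not called. DNAJB11, PDIA6, LMAN1, EDEM1 and CANX passed the p threshold but not the fold minimum, at -0.57, -0.57, -0.54, -0.47 and -0.42. Without replicate 1 of the 004 extract 6 genes were lower, SEL1L, SEC24D, PDIA3, HSPA5, ERP44 and PDIA4, where 5.16% of all genes were, and 0 were higher, where 1.35% were. Without folate replicate 1 the count was 0, and without any no-folate array, folate replicate 3, 003 replicate 1 or MORAb003 replicate 3 it was 1. The actin gap was larger by log2 0.85 in the no-folate extract, and its part in these differences was not tested.

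With 003, PDIA3 and PDIA4 fell relative to the folate extract, as 2 of 33 genes, against 1.59% of all genes called lower, and 0 rose by limma (0.432% of all genes did). At an unadjusted p under 0.05, 15 differed in either direction, as did 3080 of all 14368 genes. Of all calls 21.4% were higher as deposited and 32.5% after quantile normalization. PDIA3 fell by 0.86 (SE 0.17, adjusted p = 0.0219) and PDIA4, another disulfide isomerase, fell by 0.73 (SE 0.18, adjusted p = 0.0489). The other PDIA4 set read -0.039, and neither set passed when p-values were adjusted over all probe sets. The median over the 33 was -0.28 against 0.035 over all genes, and 27 read lower. HSPA5 read -0.48, which was under the fold minimum (adjusted p = 0.0376). Without replicate 1 of the 004 extract SEC24D, PDIA3, SEL1L, PDIA4, DNAJB9 and HSPA13 were lower, 6 of 33 where 6.55% of all genes were, and 0 higher where 0.742% were. The count was 0 without folate replicate 1 or 3 or 003 replicate 1 or 2, and 1 without 003 replicate 3, folate replicate 2, or any no-folate or MORAb003 array. Without 003 replicate 3 that 1 gene was neither PDIA3 nor PDIA4. The actin gap was larger with 003 than with folate alone, by log2 0.78, and its part was not tested.

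Against the 004 extract, 003 gave 1 lower gene, PDIA3, which fell by 0.70 (adjusted p = 0.0314), and 0 higher by limma. Over all genes 0.397% were lower and 3.07% higher. An unadjusted p under 0.05 was reached by 10 of the 33, in either direction, and by 3195 of all 14368 genes. Of all calls there 88.6% were higher as deposited and 64.8% after quantile normalization. Without replicate 1 of the 004 extract 7 were lower (PDIA3, SEC24D, ERP44, PDIA4, DNAJB9, SEL1L and XBP1, where 5.54% of all genes were, and 0.806% higher), and the count was 0 without any 1 of the 3 arrays of 003. The actin gap was larger with 003 than with 004, by log2 0.56 with all arrays, and its part was not tested. The median over the 33 genes was -0.11, or -0.33 without that array, against 0.067 and 0.013 over all genes.

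With MORAb003, 3 of 33 genes rose relative to the folate extract, where 4.77% of all genes did, and 1 fell, where 1.81% did. DNAJB9 rose by 1.16 (SE 0.20, adjusted p = 0.00345), HSPA13 by 1.02 (SE 0.23, adjusted p = 0.0123) and LMAN1 by 0.79 (SE 0.10, adjusted p = 0.000655). PDIA3 fell by 0.68 (SE 0.17, adjusted p = 0.0214). The median over the 33 was 0.11, against -0.04 over all genes, with 21 above 0 and 12 below. Of all calls 72.5% were higher as deposited and 58.9% after quantile normalization. Without replicate 1 of the 004 extract XBP1, SEC24D, HSP90B1 and SEL1L were called as well, which makes 7 higher where 8.36% of all genes were, and PDIA3 was again the 1 lower gene (1.99% of all). The count of 4 dropped to 2 without folate replicate 3 or MORAb003 replicate 1 or 2. The actin gap differed by log2 -0.82 between the MORAb003 and folate extracts, and its part in these values was not tested.

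Against the 004 extract, 11 genes were higher with MORAb003 and 0 lower by limma, against 17.6% of all genes higher and 2.32% lower. At an unadjusted p under 0.05, 20 of the 33 differed in either direction, as did 6924 of all 14368 genes. The 11 genes called higher were HSPA13, DNAJB9, SEC24D, HSP90B1, SEL1L, LMAN1, XBP1, SSR1, DNAJC3, PPIB and PDIA4. Without replicate 1 of the 004 extract the first 6 of these and SSR1 were called higher, 7 of 33 where 9.95% of all genes were, and PDIA3 lower (2.4% of all). XBP1 read 0.86 higher with all arrays (adjusted p = 0.00896) and 0.55 without that array, which is under the fold minimum. After quantile normalization of the arrays the median of all genes moved by -0.13 in this comparison and by 0.13 in that of the 004 with the folate extract, and 8 of the 33 genes were higher and 2, PDIA3 and SDF2L1, lower. Of all calls 88.4% were higher as deposited and 64.1% after it. The actin gap differed by -1.04 between these extracts with all arrays, and its part was not tested.

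**Figure D3:**
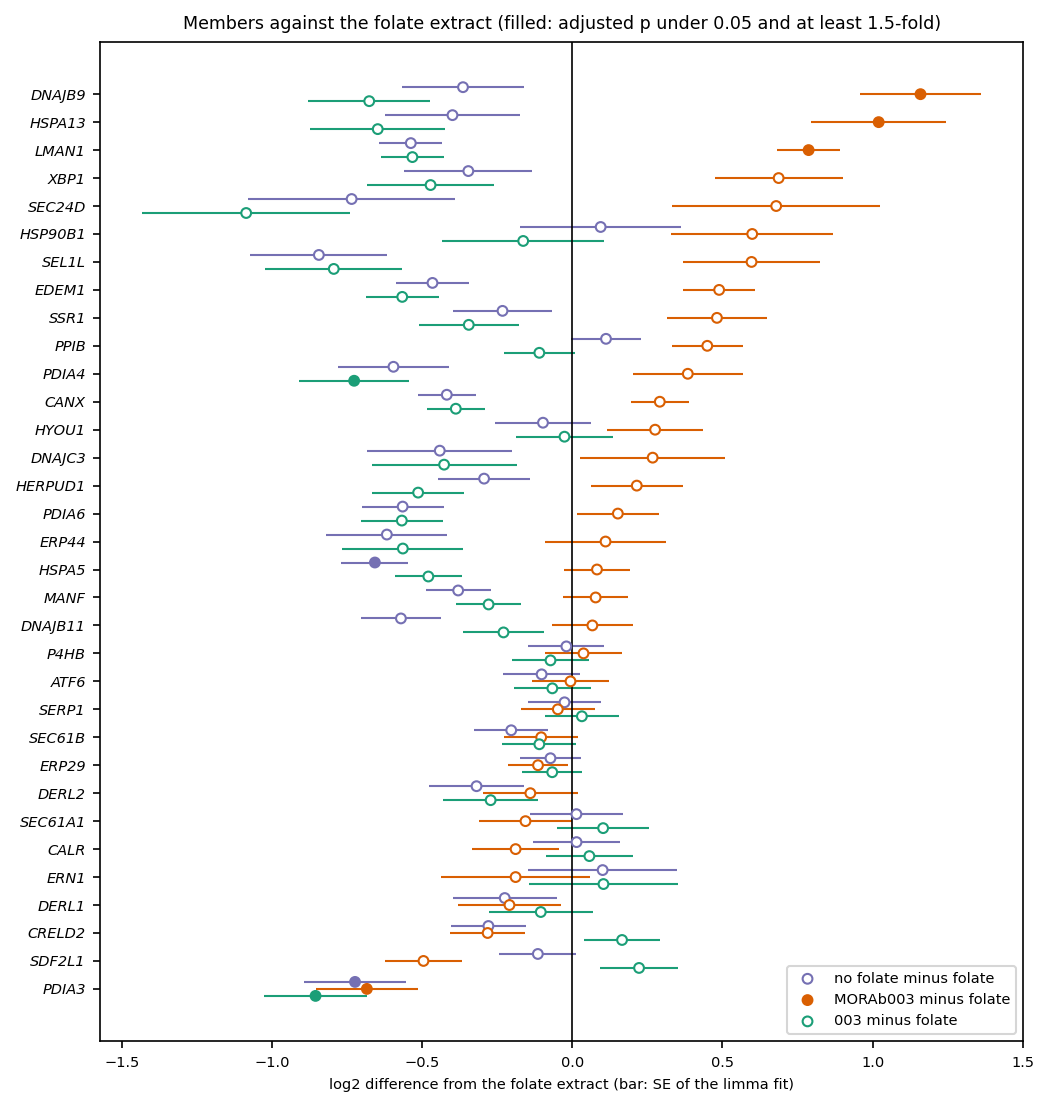
Points are log2 differences of the no-folate, MORAb003 and 003 extracts from the folate extract for each of the 33 genes, with the SE of the fit as bars. Filled points passed an adjusted p under 0.05 and 1.5-fold, which in the MORAb003 comparison were DNAJB9, HSPA13, LMAN1 and PDIA3.

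Between the MORAb003 and 003 extracts 15 of 33 genes were higher with MORAb003 and 1, SDF2L1, lower. Over all genes 17.6% were called higher and 7.8% lower. The same 15 and 1 were called without replicate 1 of the 004 extract (18.7% and 8% of all genes). Of all calls 69.3% were higher as deposited and 55.1% after quantile normalization, which called 9 of the 33 higher and 2 lower. In order of size the 15 were DNAJB9, SEC24D, HSPA13, SEL1L, LMAN1, XBP1, PDIA4, EDEM1, SSR1, HSP90B1, HERPUD1, PDIA6, DNAJC3, CANX and ERP44. For PDIA4, SEL1L, HSP90B1, HERPUD1, DNAJC3 and ERP44 at least 1 other probe set read 0.13 or less, as given with the probe sets. The median over the 33 was 0.56, against -0.087 over all genes. This was also the pair with the most different RNA controls, with an actin gap difference of -1.60, and its part in these values was not tested.

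The no-folate and 003 extracts had nearly equal control gaps (actin difference 0.07, GAPDH difference -0.12), and 0 of the 33 genes differed between them by limma (0 also without replicate 1 of the 004 extract). At an unadjusted p under 0.05 there were 3 of the 33 and 988 of all 14368 genes. Without that array there were 7 of the 33 and 3542 of all 14146 genes. Over all genes 0.104% were called higher without folate and 0.0209% lower (0.898% and 0.0707% without that array). The differences of the 33 ran from -0.45 for CRELD2 to 0.35 for SEC24D, with a median of -0.014. The 004 and folate extracts likewise differed in 0 of the 33 (0% of all genes either way). An unadjusted p under 0.05 was reached by 4 of the 33 and 1274 of all 14368 genes. Without replicate 1 of the 004 extract it was reached by 0 of the 33 and 484 of all 14146 genes. The median over the 33 was -0.19 with that array and -0.0061 without it.

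XBP1, described here with the sensors though not itself one, encodes the transcription factor that the sensor IRE1 activates by splicing. XBP1 read log2 10.01, 9.61 and 10.02 in the no-folate arrays, 10.87, 10.84 and 11.02 with MORAb003, 9.72, 9.53 and 10.01 with 003, 9.44, 10.28 and 10.45 with 004 and 10.26, 10.17 and 10.25 with folate alone. The MORAb003 arrays all lay above every other array, and the no-folate and 003 arrays lay below the folate arrays. XBP1 was 1.16 higher with MORAb003 than with 003 (SE 0.21, adjusted p = 0.000848). Against the folate extract it read 0.69 (adjusted p = 0.0523), and leaving out replicate 1 of 004 made that p 0.000261. The probe set does not separate the spliced from the unspliced form. ERN1 read log2 7.90, 7.96 and 7.80 in the no-folate arrays, 7.55, 7.51 and 7.74 with MORAb003, 8.02, 7.97 and 7.69 with 003, 8.96, 7.67 and 7.84 with 004 and 7.56, 7.86 and 7.95 with folate alone. ERN1 encodes IRE1. Its MORAb003 arrays lay below its no-folate arrays, every other pair of extracts overlapped, and the highest value was in replicate 1 of 004. It was called in 0 of the 8 comparisons. Another ERN1 set ran the opposite way and was called higher with MORAb003, by 0.84 against 003 and 0.69 against folate, while the remaining set read -0.18 and -0.26. ATF6 read log2 8.62, 8.79 and 8.66 in the no-folate arrays, 8.87, 8.78 and 8.70 with MORAb003, 8.86, 8.69 and 8.63 with 003, 8.41, 8.87 and 8.87 with 004 and 8.91, 8.79 and 8.67 with folate alone. The ATF6 arrays overlapped throughout, with no called difference in this probe set.

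**Figure D4:**
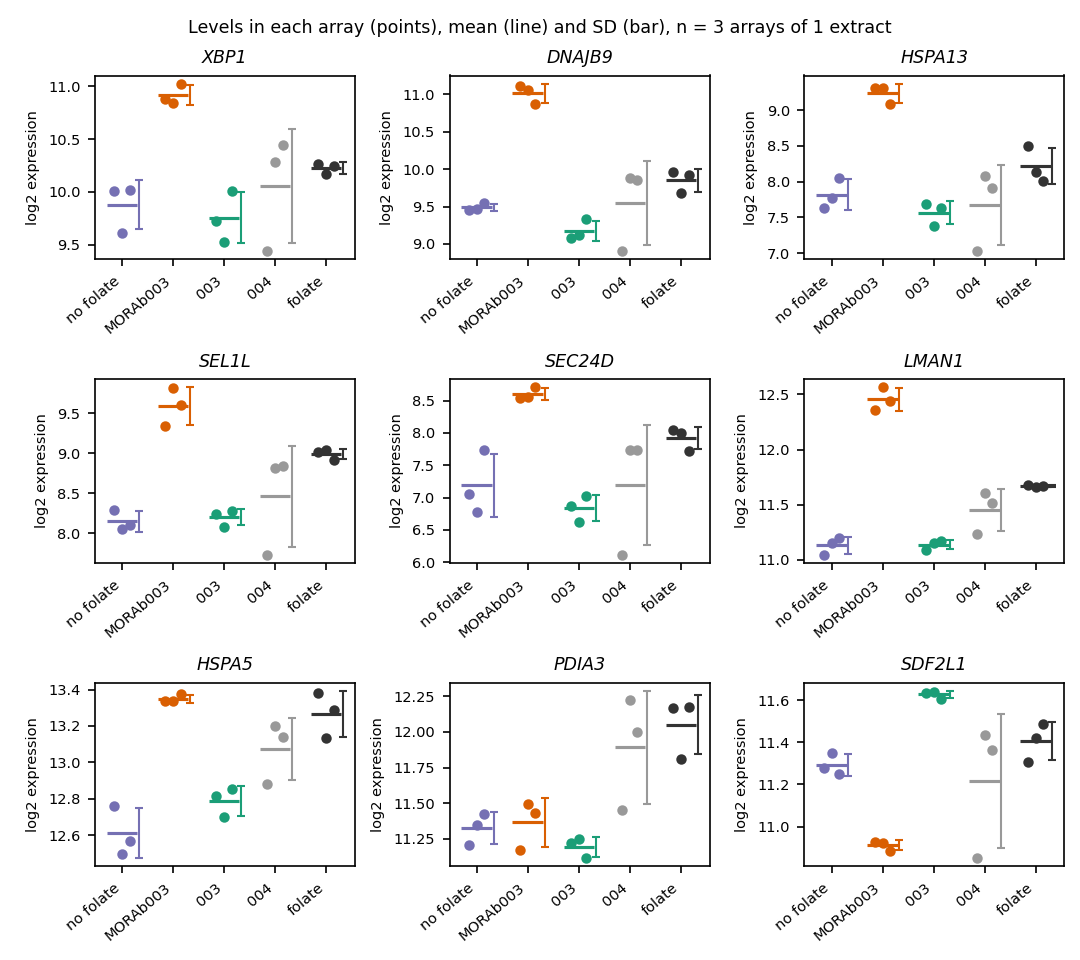
Log2 expression of 9 genes in each array (points), with the mean (line) and SD (bar) of the 3 arrays of an extract. In XBP1, DNAJB9, HSPA13, SEC24D and LMAN1 the MORAb003 arrays lie above all others, and in PDIA3 the folate arrays lie above the no-folate, MORAb003 and 003 arrays.

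In the Hsp70 and Hsp90 system, HSPA5 is the central chaperone and the usual readout of the response. HSPA5 read log2 12.76, 12.50 and 12.57 in the no-folate arrays, 13.33, 13.34 and 13.38 with MORAb003, 12.81, 12.70 and 12.85 with 003, 12.88, 13.20 and 13.14 with 004 and 13.38, 13.13 and 13.29 with folate alone. The MORAb003 and folate arrays overlapped at the top, the no-folate and 003 arrays overlapped at the bottom, and those groups did not meet. HSPA5 differed by 0.082 between the MORAb003 and folate extracts (adjusted p = 0.674). HSP90B1 encodes GRP94, the Hsp90 of the ER. Its brighter probe sets carry more than 1 symbol and were not used, so a dimmer one stands for it here. HSP90B1 read log2 9.37, 9.23 and 9.37 in the no-folate arrays, 9.88, 9.95 and 9.66 with MORAb003, 9.11, 9.18 and 8.92 with 003, 7.83, 9.43 and 8.71 with 004 and 9.29, 9.17 and 9.23 with folate alone. All MORAb003 arrays exceeded the others, and the 004 arrays spread more widely than those of any other extract. HSP90B1 was 0.76 higher with MORAb003 than with 003 (SE 0.27, adjusted p = 0.0332).

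DNAJB9 is a J-protein co-chaperone of BiP and a target of XBP1. DNAJB9 read log2 9.45, 9.47 and 9.55 in the no-folate arrays, 11.11, 11.06 and 10.87 with MORAb003, 9.07, 9.12 and 9.33 with 003, 8.90, 9.88 and 9.86 with 004 and 9.96, 9.67 and 9.92 with folate alone. The MORAb003 arrays stood clear above all 12 others, and the 003 arrays lay below the no-folate and folate arrays. It was 1.84 higher with MORAb003 than with 003 (SE 0.20, adjusted p = 2.73e-05). HSPA13, an Hsp70 relative of microsomes, showed the same top group. HSPA13 read log2 7.63, 7.77 and 8.05 in the no-folate arrays, 9.31, 9.31 and 9.08 with MORAb003, 7.69, 7.38 and 7.63 with 003, 7.03, 8.08 and 7.91 with 004 and 8.50, 8.14 and 8.01 with folate alone. Again the MORAb003 arrays were above every other array. HSPA13 was 1.67 higher with MORAb003 than with 003 (SE 0.23, adjusted p = 0.00011).

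SDF2L1, a partner of the J-proteins, ran the other way. SDF2L1 read log2 11.28, 11.35 and 11.25 in the no-folate arrays, 10.93, 10.92 and 10.88 with MORAb003, 11.64, 11.64 and 11.61 with 003, 10.85, 11.44 and 11.36 with 004 and 11.31, 11.42 and 11.49 with folate alone. The 003 arrays were the highest of all and the MORAb003 arrays lay below those of the no-folate, 003 and folate extracts. SDF2L1 was -0.72 with MORAb003 relative to 003 (SE 0.13, adjusted p = 0.000719), and -0.50 relative to folate, under the fold minimum (adjusted p = 0.0255). DNAJC3 encodes p58IPK, a co-chaperone and inhibitor of PERK. DNAJC3 read log2 10.24, 10.13 and 10.19 in the no-folate arrays, 10.81, 10.93 and 10.95 with MORAb003, 10.23, 9.97 and 10.40 with 003, 9.35, 10.52 and 10.56 with 004 and 10.77, 10.64 and 10.46 with folate alone. Its MORAb003 arrays were highest, and replicate 1 of 004 was lowest by a wide margin. DNAJC3 was 0.69 higher with MORAb003 than with 003 (adjusted p = 0.0312). DNAJB11, HYOU1 and MANF, a J-protein, the nucleotide exchange factor GRP170 and a secreted factor of stressed cells, were called in none of the 8 comparisons. Their differences between MORAb003 and 003 were 0.30, 0.30 and 0.36, and without folate they read -0.57, -0.098 and -0.38 against the folate extract.

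Of the isomerases, PDIA3 (ERp57) works with calnexin and calreticulin on glycoproteins. PDIA3 read log2 11.20, 11.35 and 11.43 in the no-folate arrays, 11.17, 11.49 and 11.43 with MORAb003, 11.22, 11.25 and 11.12 with 003, 11.45, 12.22 and 12.00 with 004 and 12.17, 11.81 and 12.17 with folate alone. The folate arrays were above all no-folate, MORAb003 and 003 arrays, and those 3 extracts overlapped. PDIA4 (ERp72) had a different order. PDIA4 read log2 10.41, 10.38 and 10.28 in the no-folate arrays, 11.30, 11.37 and 11.35 with MORAb003, 10.29, 10.13 and 10.27 with 003, 10.04, 10.98 and 10.89 with 004 and 11.08, 10.93 and 10.85 with folate alone. For PDIA4 the MORAb003 arrays were highest, and the no-folate and 003 arrays lay below the folate arrays. It was 1.11 higher with MORAb003 than with 003 (SE 0.18, adjusted p = 0.000419). PDIA6 read log2 12.38, 12.45 and 12.37 in the no-folate arrays, 12.98, 13.29 and 13.08 with MORAb003, 12.34, 12.37 and 12.49 with 003, 12.43, 12.93 and 12.92 with 004 and 13.13, 12.84 and 12.93 with folate alone. PDIA6, another disulfide isomerase, overlapped between MORAb003 and folate and was lower in every no-folate and 003 array than in either. It was 0.72 higher with MORAb003 than with 003 (adjusted p = 0.00107).

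ERP44 retains and retrieves client proteins from the early Golgi. ERP44 read log2 9.93, 10.16 and 10.12 in the no-folate arrays, 10.87, 10.70 and 10.82 with MORAb003, 10.04, 10.05 and 10.27 with 003, 9.92, 10.88 and 10.90 with 004 and 10.82, 10.57 and 10.67 with folate alone. It read lower in every no-folate and 003 array than in the folate arrays, while the MORAb003 and folate arrays overlapped. ERP44 was 0.68 higher with MORAb003 than with 003 (adjusted p = 0.0152). PPIB encodes cyclophilin B, a prolyl isomerase. PPIB read log2 13.25, 13.31 and 13.33 in the no-folate arrays, 13.63, 13.64 and 13.62 with MORAb003, 13.13, 13.01 and 13.08 with 003, 12.60, 13.08 and 13.11 with 004 and 13.17, 13.19 and 13.19 with folate alone. PPIB was highest in the MORAb003 arrays, and its no-folate arrays also lay above the folate arrays, by 0.11 (adjusted p = 0.715). With MORAb003 against 004 it rose by 0.71 (adjusted p = 0.00112), and without replicate 1 of 004 it read 0.54, under the fold minimum. P4HB (PDI itself), ERP29 and CRELD2 were not called in any comparison, and CRELD2, a secreted marker of ER stress, read -0.45 with MORAb003 relative to 003 (adjusted p = 0.011).

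In the lectin chaperones the probe sets of calnexin moved together and those of calreticulin did not. CANX read log2 12.59, 12.62 and 12.64 in the no-folate arrays, 13.27, 13.40 and 13.31 with MORAb003, 12.64, 12.62 and 12.68 with 003, 12.73, 13.04 and 12.95 with 004 and 13.10, 12.95 and 13.05 with folate alone. Calnexin (CANX), the membrane-bound one, was highest with MORAb003 and lowest without folate and with 003. It was 0.68 higher with MORAb003 than with 003 (SE 0.096, adjusted p = 0.000144). CALR (calreticulin), the soluble one, read -0.25 in the same comparison (adjusted p = 0.182) and was called nowhere through its brightest set. Its other sets read 0.84, which was called, and 0.30, which was not.

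In ER-associated degradation, which returns misfolded proteins to the cytosol, HERPUD1 is an early responder that recruits the ubiquitin ligase. HERPUD1 read log2 11.57, 11.68 and 11.81 in the no-folate arrays, 12.19, 12.16 and 12.24 with MORAb003, 11.46, 11.42 and 11.52 with 003, 11.30, 11.99 and 11.99 with 004 and 12.07, 11.88 and 11.99 with folate alone. The highest HERPUD1 arrays were those with MORAb003, and the 003 arrays were lower than the no-folate arrays. HERPUD1 was 0.73 higher with MORAb003 than with 003 (SE 0.15, adjusted p = 0.00201). SEL1L is the partner of that ligase. SEL1L read log2 8.29, 8.05 and 8.10 in the no-folate arrays, 9.34, 9.81 and 9.61 with MORAb003, 8.23, 8.08 and 8.27 with 003, 7.73, 8.82 and 8.84 with 004 and 9.02, 9.04 and 8.92 with folate alone. Every MORAb003 array was above all others, and the no-folate and 003 arrays were below the folate arrays. SEL1L was 1.39 higher with MORAb003 than with 003 (SE 0.23, adjusted p = 0.000397). Without folate it read -0.84 against the folate extract (adjusted p = 0.0541), and leaving out replicate 1 of 004 made that p 2.13e-05.

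EDEM1 read log2 7.49, 7.68 and 7.90 in the no-folate arrays, 8.63, 8.72 and 8.57 with MORAb003, 7.56, 7.50 and 7.70 with 003, 7.95, 8.06 and 8.24 with 004 and 8.28, 8.09 and 8.09 with folate alone. EDEM1 directs misfolded glycoproteins to degradation and is a target of XBP1. Its MORAb003 arrays were above all others, and its no-folate and 003 arrays were below the folate arrays. It was 1.06 higher with MORAb003 than with 003 (SE 0.12, adjusted p = 3.36e-05). DERL1 and DERL2, membrane proteins of the same pathway, were called nowhere through their brightest sets, at -0.10 and 0.13 between MORAb003 and 003. Other DERL1 sets read 1.55, which was called, 0.66 and -0.40.

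Of the translocon genes, SSR1 encodes the alpha subunit of the complex beside the Sec61 channel. SSR1 read log2 11.67, 11.54 and 11.96 in the no-folate arrays, 12.45, 12.46 and 12.40 with MORAb003, 11.52, 11.52 and 11.78 with 003, 11.16, 11.77 and 11.84 with 004 and 12.12, 11.87 and 11.87 with folate alone. All SSR1 values with MORAb003 were above the rest, and the no-folate arrays reached into the range of the folate arrays. SSR1 was 0.83 higher with MORAb003 than with 003 (adjusted p = 0.00153) and 0.84 higher than with 004 (adjusted p = 0.00271, and a difference of 0.63 without replicate 1 of 004). SEC61A1 and SEC61B, subunits of the channel, and SERP1, a stabiliser of membrane proteins at the translocon, were not called, with differences of -0.26, 0.0062 and -0.08 between MORAb003 and 003.

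Of the export genes, LMAN1 (ERGIC-53) carries glycoprotein cargo from the ER to the Golgi. LMAN1 read log2 11.05, 11.15 and 11.19 in the no-folate arrays, 12.36, 12.56 and 12.44 with MORAb003, 11.09, 11.15 and 11.17 with 003, 11.23, 11.60 and 11.52 with 004 and 11.68, 11.66 and 11.67 with folate alone. LMAN1 was highest in the MORAb003 arrays by a clear margin, and the folate arrays were above the no-folate, 003 and 004 arrays. LMAN1 was 1.32 higher with MORAb003 than with 003 (SE 0.10, adjusted p = 3.83e-06). SEC24D is a cargo adaptor of the COPII coat. SEC24D read log2 7.05, 6.78 and 7.73 in the no-folate arrays, 8.54, 8.56 and 8.71 with MORAb003, 6.88, 6.62 and 7.02 with 003, 6.12, 7.73 and 7.73 with 004 and 8.05, 8.00 and 7.72 with folate alone. Here too the MORAb003 arrays were above all others, and the no-folate arrays reached into the range of the folate arrays. SEC24D was 1.77 higher with MORAb003 than with 003 (SE 0.35, adjusted p = 0.00129).

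The values of the genes with the printed elements can be set side by side. Between MORAb003 and folate, the 8 genes with ERSE read 0.69 for XBP1, 0.60 for HSP90B1, 0.29 for CANX, 0.15 for PDIA6, 0.082 for HSPA5, -0.048 for SERP1, -0.19 for CALR and -0.28 for CRELD2. With ERSE-II, HYOU1 read 0.28, HERPUD1 0.21 and SDF2L1 -0.50. These are the brightest sets. The other SERP1 sets above the threshold averaged 10.94 and 11.18 with MORAb003, against 10.23 and 10.94 with folate. The other CALR sets averaged 9.99 and 11.53, against 9.51 and 11.25. Another set of HSP90B1, PDIA6 and HERPUD1 averaged lower, at 8.85, 12.45 and 6.56, against 8.88, 12.48 and 6.71. Through its brightest set, none of these 11 was called between MORAb003 and folate with all arrays. Over all genes 4.77% were called higher and 1.81% lower. DNAJB9, HSPA13 and LMAN1, the 3 that rose there, held none of the 3 motifs in the window. Of the 32 genes with a window 11 held ERSE or ERSE-II, so most held no exact match to either.

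A gene's probe sets read different stretches of its transcript, and they did not always move together. DNAJB9 did: its 3 probe sets read 1.84, 2.09 and 2.60 between MORAb003 and 003, and all 3 were called against 003, 004 and folate. All 4 probe sets of CANX above the filter threshold were likewise called higher with MORAb003 than with 003, from 0.68 to 1.59. P4HB did not: its brightest set read 0.11 in that comparison and the other sets 1.36 and 2.54. The last of these averaged 7.27 in the no-folate, 9.72 in the MORAb003, 7.18 in the 003, 7.92 in the 004 and 8.35 in the folate extract. SERP1 and ATF6 were similar, at -0.08 and 0.061 in their brightest sets and at up to 1.14 and 1.16 in others.

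PDIA3 turned direction with the probe set. Between MORAb003 and folate its brightest set read -0.68 and the other sets 0.30 and 0.48. Without folate all 3 read lower, at -0.72, -0.60 and -0.17. The other set of PDIA4 read -0.039 between MORAb003 and 003 where the brightest read 1.11. Other sets of HERPUD1, SEL1L and HSP90B1 read -0.039, 0.11 and 0.066 there, and none of these 3 was called although the brightest set of each was. The other set of ERP44 read 0.13 and was not called. DNAJC3 had 4 sets, of which the brightest and another were called (0.69 and 1.05) and the others read 0.46 and -0.23. LMAN1, SEC24D, XBP1, EDEM1 and SDF2L1 had 1 set above the threshold, and for EDEM1 and SDF2L1 no second reading was at hand. Sets of LMAN1 below the threshold averaged 6.19 and 5.96 with MORAb003, against 5.71 and 5.81 with 003. Those of SEC24D averaged 4.67 and 4.77 against 4.86 and 4.92. That of XBP1 averaged 5.68 against 6.21, opposite in direction to its brightest set.

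Of 22 genes with at least 2 probe sets above the threshold, the sets spread over 1.5-fold or more in 15 between the MORAb003 and 003 extracts, in 10 between MORAb003 and folate, in 9 between no folate and folate, and in 0 between the no-folate and 003 extracts. The actin gaps of these pairs differed by -1.60, -0.82, 0.85 and 0.07 (log2). Whether the control gap and the spread between probe sets share a source was not tested.

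**Figure D5:**
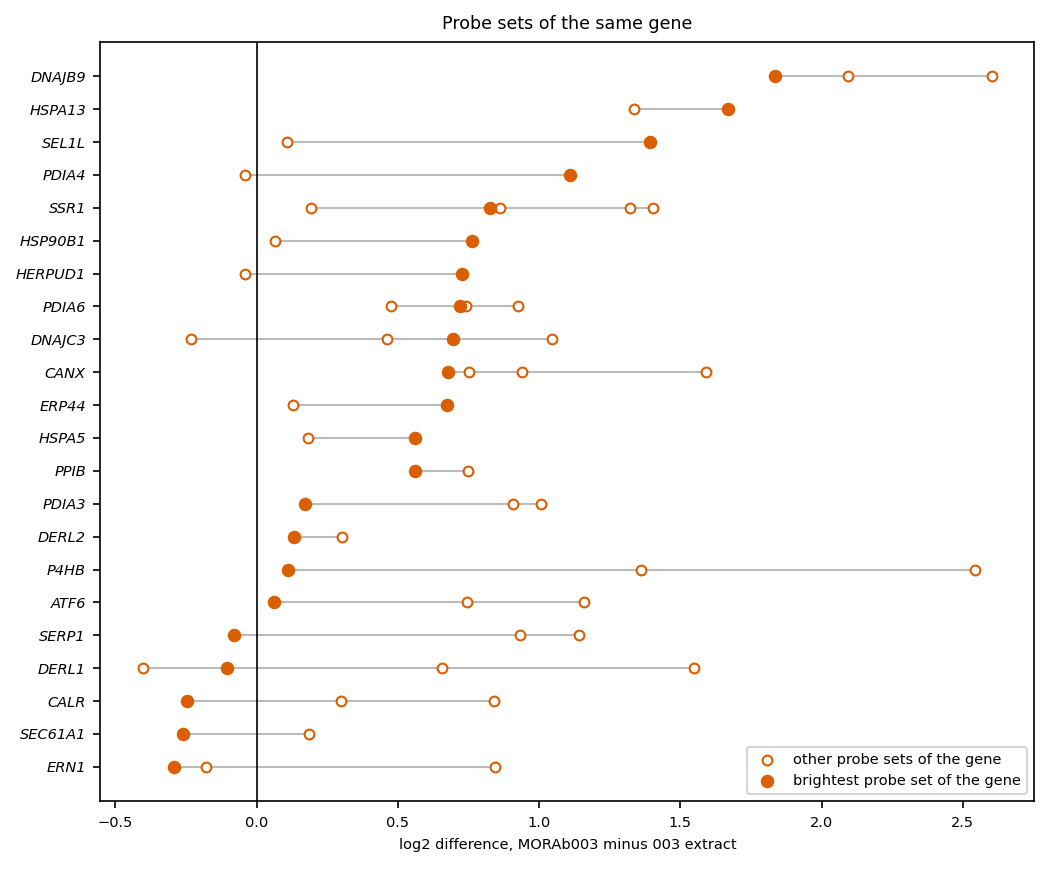
Each row is 1 of the 22 genes with at least 2 probe sets above the filter threshold, and each point a probe set's log2 difference, MORAb003 minus 003 (filled, the brightest). The 3 sets of DNAJB9 all lie above 1.8, whereas those of P4HB run from 0.11 to 2.54.

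Other genes of the pathway were taken from 9 further lists. In the PERK arm, where ATF4 and CHOP (DDIT3) raise amino acid and stress genes, 0 of 14 genes were called without folate by limma. Over all genes 0.905% were called higher there and 1.8% lower. An unadjusted p under 0.05 was reached by 3 of the 14 and by 2684 of all 14368 genes. Without replicate 1 of the 004 extract 1 of the 14, EIF2AK3, was called lower, where 5.16% of all genes were lower and 1.35% higher. EIF2AK3, which encodes PERK, was higher with MORAb003 by 1.73 against 003 and 1.56 against 004 (adjusted p = 0.00177 and 0.0061). Against the folate extract it read -0.73 without folate, 0.85 with MORAb003 and -0.88 with 003 (adjusted p = 0.296, 0.138 and 0.174). All 3 were called without replicate 1 of 004 (adjusted p = 0.00464, 0.00109 and 0.00117). With 003, ASNS (asparagine synthetase), DDIT4 and VLDLR fell relative to folate, by 1.28, 0.97 and 0.94 (adjusted p = 0.0112, 0.00795 and 0.03). These were 3 of 14, where 1.59% of all genes fell. ASNS and DDIT4 were also the 2 called between the no-folate and 003 extracts, higher without folate by 1.19 and 0.87 (adjusted p = 0.0397 and 0.02). Of the 33 ER genes 0 were called there, where 0.104% of all genes were called higher and 0.0209% lower. With MORAb003, VLDLR and ATF3 rose by 0.89 and 0.73 against folate, as 2 of 14, where 4.77% of all genes rose. DDIT3 (CHOP), the marker of unresolved stress, read 0.0063 without folate, 0.059 with MORAb003 and -0.046 with 003 against the folate extract, with 0 of these 3 called (adjusted p = 0.99, 0.808 and 0.865).

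Between MORAb003 and 003, genes of ER export were higher in 6 of 16 (1 lower) and other folding enzymes in 6 of 10 (1 lower). Over all genes 17.6% were higher and 7.8% lower. SEC23A of the COPII coat was higher by 1.64, TMED10, a cargo receptor, by 1.30 and KDELR3, a receptor that returns ER residents, by 1.27 (adjusted p = 0.000454, 5.38e-05 and 2.73e-05). Among the folding enzymes DNAJC10, TMX1 and ERO1A, the oxidase that recharges PDI, were higher by 1.19, 1.18 and 1.14. STT3B and STT3A, catalytic subunits of N-glycosylation, were the 2 of 11 called in their list, at 1.44 and 1.09. TMED9, a cargo receptor of the same family as TMED10, and FKBP2, a prolyl isomerase, were lower, at -0.63 and -0.84.

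In the same comparison 5 of 14 genes were higher in the PERK arm, 2 of 9 among other factors of the response (MBTPS2 and NFYB), 2 of 13 in the translocon and signal peptidase (1 lower) and 3 of 12 in degradation (1 lower). Chaperones outside the ER were counted as well. Of 9 cytosolic heat shock genes 0 were higher and 1, HSF1, lower, and of 10 mitochondrial chaperones and proteases 1 was higher and 2 lower, with list medians of -0.14 and -0.031. Without folate ERO1A fell by 0.87 (adjusted p = 0.011), SPCS1 and SPCS2 of the signal peptidase by 0.63 and 0.59, and STT3B by 0.82. These 4 of 104 tested genes were those of the 9 lists called there with all arrays, where 1.8% of all genes were lower. Without replicate 1 of the 004 extract EIF2AK3, DNAJC10, UBE2J1, SEC23A and SEC24B were called lower as well, where 5.16% of all genes were. Over the 9 lists, with 104 genes tested, leaving out that array took the count from 5 to 15 with 003 against folate. The shares of all genes were 0.432% higher and 1.59% lower with all arrays, and 0.742% and 6.55% without it. With MORAb003 against folate the count went from 5 to 12 of 104. There the shares of all genes were 4.77% higher and 1.81% lower with all arrays, and 8.36% and 1.99% without it.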

How the data were processed

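The authors deposited log2 expression for 54675 probe sets per array, from 4.00 to 15.5. How they summarised and normalized the scans is "not given in the sources used here". Per the labels, total RNA was extracted with Trizol and labelled as biotinylated cRNA. The log2 values were used as deposited. Control probe sets (62) were left out. Of the rest, 41091 carried 1 symbol, 1801 several and 11721 none in the platform annotation. For 41037 of the 41091 the gene was found in the RefSeq gene table, and its symbol there was used. A gene was tested if 1 extract mean reached log2 6.60, the median of all values. limma 3.58.1 in R 4.3.3 fitted 5 group means to 15 arrays (10 residual degrees of freedom, lmFit and eBayes). The number of arrays limits the precision, and for a condition so does its single culture.

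The 35 genes, the further lists and the tests were chosen with earlier results of these data known. Any of the 35 could be named, with array values for HSPA5, HSP90B1, PDIA3, XBP1, ERN1, ATF6, DNAJB9, HERPUD1 and every called gene. Of each further list, up to 4 called genes with the largest difference per comparison could be named. DDIT3, TMED9 and FKBP2 were named outside that rule, after their values were seen. Tested on simulated data for no folate against folate (14368 genes), the fit called 74 of 100 genes with a simulated 1.8-fold change, 97 of 100 with a 3-fold change and 8 unchanged genes. Same-numbered arrays did not pair: of 30 pairs across extracts 8 had deviations correlated above 0.1 (range -0.51 to 0.49). Replicate 3 of every extract was on the second array date. These arrays correlated at 0.46 (no folate with 003), 0.44 (no folate with 004) and 0.49 (003 with 004). Their pairs with the folate or MORAb003 arrays ran from -0.44 to -0.02. A pair of unlike number, folate replicate 1 with 004 replicate 3, reached 0.53. Protein sequences were not used here. Alternatives were quantile normalization, a stricter filter and none, the mean of a gene's probe sets, other fold minimums, array date and replicate as blocks, each date alone, a trended robust prior, fits of only the extracts compared and each array left out.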

Additional observations from a re-analysis of the deposited data

How the results depend on the processing

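Counts of called genes among the 33 are given in the order no folate, 003 and MORAb003 against folate, 003 and MORAb003 against 004, and MORAb003 against 003, where they were 2, 2, 4, 1, 11 and 16. For no folate against 003, and for 004 against folate, the count was 0 in every alternative run. With no fold minimum the first 4 counts were 7, 7, 7 and 2, and with a 2-fold minimum all 6 were 0, 0, 2, 0, 6 and 8. Fits of only the 2 extracts compared gave 6, 6, 8, 0 and 0 for the first 5. Averaging the probe sets of each gene gave 1 for no folate against folate, which was neither HSPA5 nor PDIA3. For MORAb003 against folate it gave 2, of which 1 was called in the main fit. It gave 0 for 003 against 004 and 7 for MORAb003 against 004. The first array date alone gave 0 for each of the first 4. For 003 against folate, no filter, the trend and robust prior and the array date block gave 1 each. Quantile normalization gave 2 for no folate against folate, of which 1 was called in the main fit, and 3 for 003 against 004. The replicate block, on numbers that do not pair the arrays (7 of 15 arrays correlated best with their own number), gave 1 for 003 against folate and changed no other count by over 1.5 times. The median difference of the 33 moved to 0.42 after quantile normalization and to 0.42 with the mean of all probe sets for MORAb003 against 003 (0.56). Quantile normalization also gave medians of 0.040 for MORAb003 against folate (0.11), 0.11 for MORAb003 against 004 (0.28) and -0.20 for 003 against 004 (-0.11). It gave -0.19 for 003 against folate (-0.28) and -0.012 for 004 against folate (-0.19). The median was -0.21 in the second array date alone for no folate against folate (-0.32).

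Leaving out 1 array at a time gave counts of 0 to 6 for no folate against folate, 0 to 6 for 003 against folate, 2 to 8 for MORAb003 against folate, 0 to 7 for 003 against 004, 8 to 14 for MORAb003 against 004 and 13 to 16 for MORAb003 against 003. The medians ran from -0.37 to -0.28, -0.33 to -0.26, 0.053 to 0.18, -0.33 to 0.050, 0.18 to 0.39 and 0.52 to 0.57 in the same order, from -0.041 to 0.0093 for no folate against 003 and from -0.29 to -0.0061 for 004 against folate. PDIA3 reversed to 0.035 (adjusted p = 0.905) between MORAb003 and folate with the mean of all probe sets, since its 3 sets disagree. The cause of the other changes was not tested, beyond fewer arrays or another fold minimum where an alternative has one.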
